A study of Mus musculus with 8 samples.

Results

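The expression of 9 transcription regulators that set or mark macrophage identity was measured: *Spi1*, *Irf8*, *Maf*, *Zeb2*, *Id1*, *Id3*, *Rbpj*, *Spic* and *Nfix*. They were taken by symbol from a table of 55401 genes, in which each of the 9 had 1 entry, and all 9 were among the 15202 genes with at least 0.5 CPM (counts scaled to library size) in at least 1 library. *Nfix* was selected on its measured responses to cholesterol crystals, which ran in opposite directions with the labels normal and steatotic, so its values in those contrasts are given as a description with no test. The other 8 genes were chosen by name, with earlier results of these data known.

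The cells were hepatic macrophages, collected from nonparenchymal liver cells with magnetic beads against F4/80, a macrophage surface protein encoded by *Adgre1*, and cultured on collagen-coated plates. Normal macrophages came from wild-type C57BL/6J mice on a standard diet, and steatotic macrophages from MC4R-KO mice on the C57BL/6J background, which lack the melanocortin 4 receptor and become obese, given Western diet over 6 to 10 weeks. Each kind was cultured for 24 hours with cholesterol crystals (CC, 500 µg/ml) or vehicle alone (Veh), and poly(A) RNA of 2 libraries per group, 8 in all, was sequenced. Genotype and diet changed together and cannot be told apart, and donor age and sex, which the study's methods give for its feeding experiments, and the number of mice per library are not stated for these cultures in the sources used here. Nothing in the labels says that the 2 libraries of a group came from separate cultures or animals, so the p-values measure the spread between these libraries, which may be technical.

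The libraries held 58668655 to 74529462 counts, and log2 CPM of the 2 libraries of a group correlated across genes with r = 0.979 to 0.982. *Mc4r*, the gene disrupted in the knockout mice, went against the labels: it had 0 counts in the 4 libraries labelled normal and 28, 22, 53 and 72 counts in the 4 labelled steatotic, so every direction between the livers below rests on the labels. Whether the disrupted allele still gives these reads was not tested. The label macrophage was checked on 11 general markers, whose summed level was 13900 to 18420 CPM in the normal and 12470 to 18170 CPM in the steatotic libraries, with none at 0, and on 8 markers of Kupffer cells, the resident macrophages of the liver, at 2917 to 3619 CPM and 3251 to 4857 CPM. The macrophage sum hides a split between the livers. By edgeR's test at vehicle, 7 of the 11 markers were higher and 3 lower with the label steatotic. *Lyz2* and *Cd68* were lower, at means of 3535 against 7873 CPM and 2090 against 3503 CPM. *Adgre1* and *C1qa* were higher, at 1747 against 1049 CPM and 2214 against 842.3 CPM. The part of this split in the differences between the livers below was not tested. The macrophage sum itself was lower with CC, at 13900 to 14070 against 17890 to 18420 CPM in normal and 12470 to 13600 against 17650 to 18170 CPM in steatotic macrophages.

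Markers of other cells also differed between the labels. All 7 monocyte markers and all 10 T and natural killer cell markers were higher with the label steatotic at vehicle, by edgeR's quasi-likelihood test with Benjamini-Hochberg adjustment over all tested genes. Of all tested genes 16.4% were called higher in this contrast. The sums of these markers at vehicle were 11.3 to 12.01 against 139.4 to 145.5 CPM for monocytes and 5.75 to 6.66 against 66.2 to 72.2 CPM for T and natural killer cells, and over Veh and CC 8.31 to 12.01 against 124 to 145.5 CPM and 4.22 to 6.66 against 50.9 to 72.2 CPM. Most of the T and natural killer cell sum was *Gzmb*, at 4.57 and 3.36 CPM in normal Veh and 50.7 and 47.7 CPM in steatotic Veh. The T cell genes *Cd3d*, *Cd3e* and *Cd3g* were at 0.79 to 2.51 CPM in steatotic Veh. Endothelial markers summed to 104.9 to 119.2 CPM in normal and 164.5 to 200.1 CPM in steatotic libraries, and hepatocyte markers to 51 to 60.1 and 1.901 to 2.73 CPM. Dendritic cell markers summed to 5.41 to 5.67 CPM in normal Veh, 10.2 to 10.7 CPM in normal CC, 9.88 to 10.1 CPM in steatotic Veh and 8.79 to 9.55 CPM in steatotic CC, and B cell markers to 2.58 to 2.96, 1.93 to 2.08, 3.17 to 3.38 and 1.23 to 1.61 CPM in the same order. Stellate cell markers, mostly *Dcn*, summed to 2.93 to 7.55 CPM in normal libraries, 18.1 to 21.4 CPM in steatotic libraries with Veh and 110.2 to 138.5 CPM in those with CC. Neutrophil markers, mostly *Mmp8*, summed to 55 to 90.7 CPM in normal and 100.4 to 267.6 CPM in steatotic libraries. *S100a8* made up nearly all of the rest and was lower with the label steatotic at vehicle by -0.92 (adjusted p = 0.00130), *S100a9*, *Retnlg*, *Camp* and *Cxcr2* were at or near 0, and *Ly6g* was at 0 in all 8.

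Macrophage identity is set by layers of transcription factors. PU.1, the product of *Spi1*, opens enhancers in all myeloid cells and works with partners such as IRF8, while c-MAF (*Maf*) restrains self-renewal and ZEB2 helps tissue macrophages keep their identity. In the liver, Notch ligands and bone morphogenetic proteins (BMPs) of the sinusoidal wall act on Kupffer cells: RBPJ is the DNA-binding partner of the cleaved Notch receptor, and ID1 and ID3 are targets of BMP signalling that lack a DNA-binding domain and hold E proteins off the DNA. SPIC, a relative of PU.1, is known from the iron-recycling macrophages of spleen and liver, and NFIX is a CTF/NF1-type factor studied in muscle, nerve and blood cell development.

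The promoters of 3 genes are printed because their genes responded to CC in different directions, down for *Id3*, up for *Rbpj* and opposite by liver for *Nfix*. RefSeq promoter windows (build GRCm38.p6, from 250 bases before to 50 bases after the start) were at hand for 6 of the 9 genes, with 14 starts. Each is written 5′ to 3′ along the gene's strand, and capitals mark matches on either strand to a core recognised by one of the factors described here or by SMAD proteins: GAGGAA for PU.1, TGGGAA for RBPJ, CACCTG for ZEB proteins, TGCTGA for MAF and GGCGCC for SMADs. The windows are chr4:136143572-136143871 (plus strand) for *Id3*, chr5:53590096-53590395 (plus strand) for *Rbpj* and chr8:84780033-84780332 (minus strand) for *Nfix*.
Id3: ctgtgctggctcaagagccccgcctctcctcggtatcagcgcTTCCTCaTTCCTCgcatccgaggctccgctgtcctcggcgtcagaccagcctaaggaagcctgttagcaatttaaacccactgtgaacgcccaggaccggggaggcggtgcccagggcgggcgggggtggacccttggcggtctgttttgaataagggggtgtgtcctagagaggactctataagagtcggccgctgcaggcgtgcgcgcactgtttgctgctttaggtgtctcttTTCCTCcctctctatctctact
Rbpj: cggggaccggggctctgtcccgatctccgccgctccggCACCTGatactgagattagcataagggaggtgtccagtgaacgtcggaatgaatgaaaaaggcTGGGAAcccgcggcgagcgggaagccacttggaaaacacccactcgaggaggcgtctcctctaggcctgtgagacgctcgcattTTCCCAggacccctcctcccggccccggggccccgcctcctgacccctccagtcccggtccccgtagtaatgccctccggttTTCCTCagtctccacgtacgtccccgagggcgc
Nfix: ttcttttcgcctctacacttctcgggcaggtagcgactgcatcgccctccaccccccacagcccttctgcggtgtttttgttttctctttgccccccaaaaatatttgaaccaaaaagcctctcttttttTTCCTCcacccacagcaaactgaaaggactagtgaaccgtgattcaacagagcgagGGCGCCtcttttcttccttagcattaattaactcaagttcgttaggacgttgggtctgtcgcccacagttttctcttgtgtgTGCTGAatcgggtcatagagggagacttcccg
*Id3* has 1 window in the table, *Rbpj* 2 and *Nfix* 4, and the first listed of each is printed. The *Id3* window holds 3 matches to the PU.1 core, the printed *Rbpj* window 2 to the RBPJ core, 1 to the ZEB core and 1 to the PU.1 core, and the printed *Nfix* window 1 each to the PU.1, MAF and SMAD cores. The other *Rbpj* window holds 1 match each to the RBPJ and PU.1 cores. Of the other *Nfix* windows, 1 holds 2 matches to the PU.1 core and 1 to the ZEB core, 1 holds 1 to the PU.1 core and 1 holds none. Of 32851 mouse promoter windows of this length, 28.3% hold the PU.1 core, 25.6% the RBPJ core, 20.2% the ZEB core, 19.5% the MAF core and 11.9% the SMAD core. These matches describe the letters of the windows and were not tested as binding sites.

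Across the 9 genes, levels were compared per kilobase of merged exons. With Veh and the label normal, *Spi1* was highest at 136.2 CPM per kb, followed by *Spic* at 77.7, *Id3* at 75.3, *Maf* at 42.8, *Id1* at 35.7, *Zeb2* at 23.2, *Irf8* at 12.7, *Rbpj* at 10.2 and *Nfix* at 2.54 CPM per kb. *Spic* and *Id3* lay closer to each other than the 2 libraries of *Spic*, and so did *Irf8* and *Rbpj* relative to the spread of *Irf8*. With the label steatotic and Veh, *Maf* stood second at 93.5 CPM per kb behind *Spi1* at 176.3, with means of 76.2 for *Spic* and 67.3 for *Id3*, and the spread of *Spic* leaves its order among *Maf* and *Id3* unset. The plot of levels by library shows all 9 genes.

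**Figure D1:**
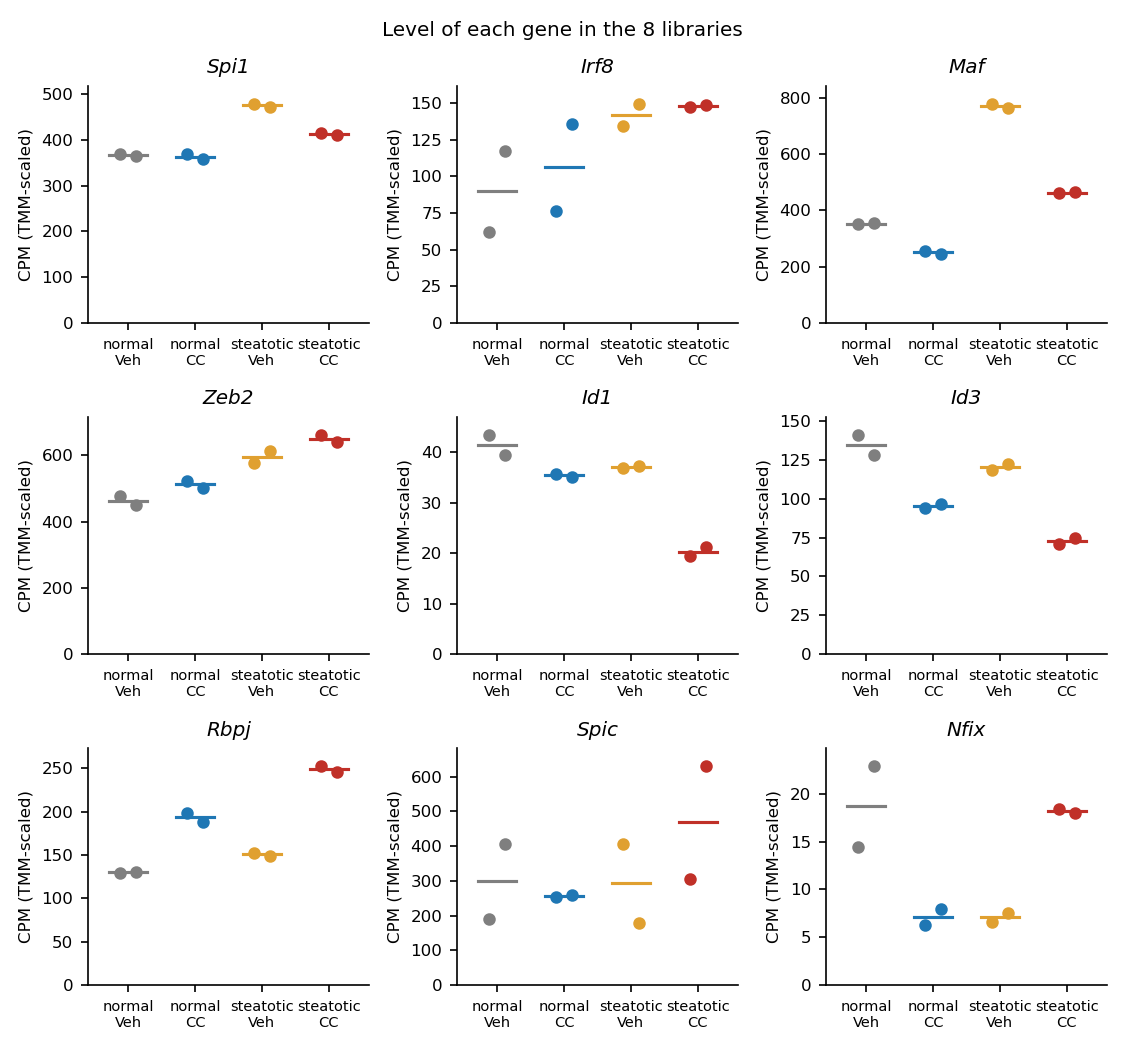
Level of each of the 9 genes in each of the 8 libraries, in TMM-scaled CPM on a linear axis that starts at 0, with the 4 groups on the horizontal axis. Points are libraries and bars are group means (n = 2). *Maf* is highest in steatotic macrophages with Veh (778.6 and 763 CPM), *Nfix* is high in normal Veh and steatotic CC, and the libraries of *Spic* lie far apart within 3 of the 4 groups.

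Between the livers at vehicle, 4 of the 8 genes with a test were higher with the label steatotic (*Maf*, *Spi1*, *Zeb2* and *Rbpj*) and none was lower, against 30.7% of all tested genes called in either direction, 16.4% higher and 14.3% lower. With CC the same 4 were higher and *Id1* and *Id3* were lower, against 28.8% of all tested genes called, 15.9% of them higher and 12.9% lower. CC raised *Rbpj* and lowered *Maf* and *Id3* in normal macrophages, 1 higher and 2 lower of 8 genes beside 11.8% of all tested genes, 6.27% higher and 5.54% lower. In steatotic macrophages CC raised *Rbpj* and lowered *Maf*, *Id3*, *Id1* and *Spi1*, 1 higher and 4 lower of 8 beside 22.9%, 12% higher and 10.9% lower. The difference between the CC responses was called, and negative, for *Maf* and *Id1*, 2 of 8 beside 3.22% of all tested genes, 1.95% positive and 1.27% negative. Averaged over Veh and CC, which includes *Nfix*, 4 of 9 genes were higher with the label steatotic and 2 lower, beside 41.3% of all tested genes, 21.4% higher and 19.9% lower. The median log2 fold change of the 8 genes was 0.29 between the livers at vehicle, -0.12 with CC in normal and -0.07 with CC in steatotic macrophages, and that of all tested genes was within 0.01 of 0 in each.

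**Figure D2:**
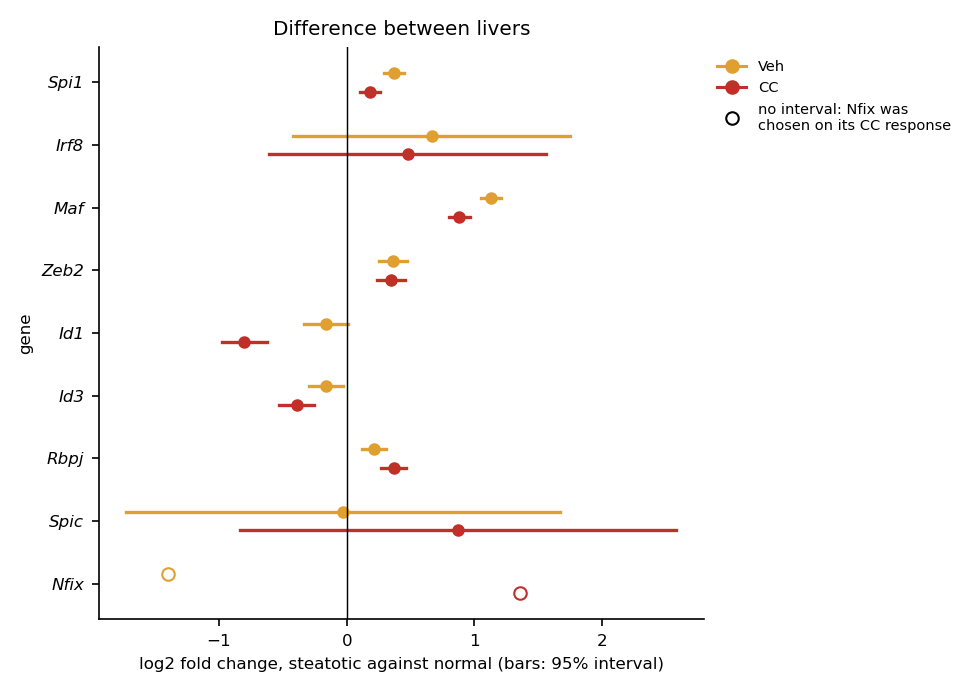
Difference between steatotic and normal macrophages for each gene, as log2 fold change on the horizontal axis, with Veh and with CC. Bars are 95% intervals from the edgeR fit and open points have no interval. *Maf* shows 1.13 with Veh and 0.88 with CC, while *Spic* and *Irf8* have intervals that span 0.

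*Spi1* (ENSMUSG00000002111.8, chromosome 2, 91082390 to 91115756) encodes PU.1, the pioneer factor of myeloid cells. Its level was 369.5 and 364.6 CPM in normal macrophages with Veh, 367.9 and 358.2 CPM with CC, 479 and 471.2 CPM in steatotic macrophages with Veh, and 414.2 and 410.8 CPM with CC. All 4 steatotic libraries lay above all 4 normal ones, and within steatotic macrophages the CC libraries lay below the Veh libraries. Here and below, groups that do not overlap are a description only. With 2 libraries a group, the share of all tested genes that separate in this way was not counted. On the log2 scale *Spi1* was higher with the label steatotic by 0.37 ± 0.0330 at vehicle (SE, adjusted p = 0.000122) and by 0.18 ± 0.0330 with CC (adjusted p = 0.00494). CC lowered it by 0.20 ± 0.0330 on the log2 scale (adjusted p = 0.00356) in steatotic macrophages, and the change in normal macrophages was -0.02 ± 0.0330 (adjusted p = 0.826). The difference between these responses was -0.19 with an adjusted p of 0.0917, so it did not pass the threshold. Because these are bulk samples, fewer cells of a type and less RNA per cell cannot be told apart here or below, and the part of the monocyte and lymphocyte markers in the difference between the livers was not tested.

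*Irf8* (ENSMUSG00000041515.10, chromosome 8, 120736358 to 120756694) encodes the partner of PU.1 that supports monocytes, Kupffer cells and dendritic cells. It stood at 61.9 and 117.6 CPM in normal Veh, 76.4 and 135.9 CPM in normal CC, 134.7 and 149.7 CPM in steatotic Veh and 147.1 and 148.4 CPM in steatotic CC. Replicate 1 was the lower library in both normal groups, by 1.9-fold and 1.78-fold, whereas the steatotic libraries differed by 1.11-fold and 1.01-fold. The steatotic libraries lay above the normal ones at vehicle without overlap, but the log2 fold change of 0.66 had an interval of -0.42 to 1.75 and an adjusted p of 0.305. Averaged over Veh and CC it was 0.57 ± 0.291 (SE, adjusted p = 0.192). No contrast of *Irf8* passed the threshold, and its CC responses of 0.24 in normal and 0.06 in steatotic macrophages had adjusted p-values of 0.787 and 0.948. *Xcr1* and *Clec9a*, markers of a dendritic cell type that depends on IRF8, were higher with the label steatotic at vehicle by 2.62 and 1.12 on the log2 scale (adjusted p = 0.000116 and 0.0217), the second lost without replicate 2 of normal Veh or either steatotic Veh library (adjusted p = 0.0656 to 0.109), as were all 7 monocyte markers. Of the 6 dendritic markers tested, 2 others were lower: *Ccr7*, at 1.53 and 1.89 against 0.649 and 0.164 CPM (adjusted p = 0.0391), and *Flt3*, at 0.166 and 0.369 against 0 CPM in both libraries (adjusted p = 0.0285). Both calls were lost when single libraries were left out, *Ccr7* without any 1 normal library or replicate 2 of steatotic Veh (adjusted p = 0.0632 to 0.134) and *Flt3* without replicate 2 of normal Veh or either steatotic Veh library (adjusted p = 0.0847 to 0.0901). The part of these cells in the values of *Irf8* was not tested.

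Other members of the IRF family are given for comparison. *Irf2*, a repressor of interferon targets, was higher with the label steatotic by 0.44 ± 0.0670 on the log2 scale at vehicle (SE, adjusted p = 0.00191) and by 0.43 with CC (adjusted p = 0.00250). *Irf7*, the amplifier of type I interferon responses, was lower, by -0.34 ± 0.0311 at vehicle (adjusted p = 0.000143) and -0.19 with CC (adjusted p = 0.00301).

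*Maf* (ENSMUSG00000055435.6, chromosome 8, 115682942 to 115707794) encodes c-MAF, a large MAF factor with an activation domain. Its levels were 351.2 and 353.3 CPM in normal Veh, 255.6 and 245.9 CPM in normal CC, 778.6 and 763 CPM in steatotic Veh, and 459.7 and 464.7 CPM in steatotic CC. The libraries of a group differed by at most 1.04-fold and no groups overlapped. Steatotic macrophages held 2.19-fold more *Maf* at vehicle (log2 fold change 1.13 ± 0.0348, SE, adjusted p = 8.77e-07) and 1.84-fold more with CC (0.88 ± 0.0346, adjusted p = 2.47e-06). CC lowered it by 0.49 ± 0.0345 on the log2 scale in normal (adjusted p = 0.000154) and by 0.74 ± 0.0345 in steatotic macrophages (adjusted p = 7.83e-06). The steatotic CC libraries still lay above the normal Veh libraries. Of the 11 general macrophage markers 9 fell with CC in normal and 8 in steatotic macrophages, beside 5.54% and 10.9% of all tested genes. The part of these markers in the fall of *Maf* was not tested. The difference between the responses was -0.25 ± 0.0486 (adjusted p = 0.0409), and it did not pass when any 1 of the 8 libraries was left out (adjusted p = 0.0712 to 0.133).

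Among relatives of *Maf*, *Maff* and *Mafg*, small MAF proteins without an activation domain, rose with CC: *Maff* by 1.15 ± 0.111 (adjusted p = 0.000647) and 1.87 ± 0.115 (adjusted p = 2.73e-05), and *Mafg* by 0.41 (adjusted p = 0.00159) and 0.45 (adjusted p = 0.000489). *Maff* was also lower with the label steatotic at vehicle by -1.07 ± 0.113 (adjusted p = 0.000317). Over all 17 tested relatives of the 9 genes, 4 rose and 2 fell with CC in normal and 3 rose and 2 fell in steatotic macrophages, with medians of 0.02 and 0.04. The shares of all tested genes called were 11.8% and 22.9%. Without replicate 1 of normal Veh or replicate 2 of normal CC, 3 rose and 1 fell in normal, and without replicate 1 of steatotic CC 4 fell in steatotic macrophages.

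*Zeb2* (ENSMUSG00000026872.18, chromosome 2, 44983632 to 45117395) encodes a zinc finger repressor that binds E-boxes. It was at 476.1 and 449.7 CPM in normal Veh, 523.2 and 502.1 CPM in normal CC, 577.1 and 613 CPM in steatotic Veh, and 662.6 and 638.7 CPM in steatotic CC. All steatotic libraries lay above all normal ones. The log2 fold change between the livers was 0.36 ± 0.0474 (SE, adjusted p = 0.000927) at vehicle and 0.34 ± 0.0474 (adjusted p = 0.00139) with CC. The CC libraries also lay above the Veh libraries in both kinds of macrophage, but the values of 0.15 and 0.13 did not pass after adjustment (adjusted p = 0.0950 and 0.0969), and the difference between them was -0.02 with an interval of -0.17 to 0.14. *Zeb2os*, an antisense gene, shares 653 exon bases with *Zeb2* and had 799 to 1217 counts per library. The library kit keeps strand but the setting used in counting is not given in the sources used here, so reads of the pair may be mixed. *Zeb1*, the paralogue of *Zeb2*, was also higher with the label steatotic, by 1.12 ± 0.127 at vehicle and 1.16 ± 0.127 with CC (adjusted p = 0.000441 and 0.000444), with means of 11.7 against 5.35 CPM at vehicle.

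*Id3* (ENSMUSG00000007872.3, chromosome 4, 136143497 to 136145755) and *Id1* (ENSMUSG00000042745.9, chromosome 2, 152736251 to 152737410, 1 exon) encode inhibitors of E proteins, and ID3 is needed for Kupffer cell development. *Id3* was at 141.3 and 128.3 CPM in normal Veh, 94.1 and 96.5 CPM in normal CC, 118.6 and 122.6 CPM in steatotic Veh, and 70.7 and 74.5 CPM in steatotic CC. CC lowered *Id3* by 0.50 ± 0.0577 on the log2 scale in normal (SE, adjusted p = 0.00147) and by 0.73 ± 0.0579 in steatotic macrophages (adjusted p = 9.56e-05). The Veh and CC libraries did not overlap in either, and the difference between the responses did not pass (-0.23, adjusted p = 0.241). With the label steatotic *Id3* was lower with CC (-0.39 ± 0.0578, adjusted p = 0.00192), while the value at vehicle of -0.16 did not pass (adjusted p = 0.0719). It passed without replicate 2 of normal Veh (adjusted p = 0.0305).

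*Id1* showed its lowest level in steatotic macrophages with CC. The values were 43.5 and 39.4 CPM in normal Veh, 35.8 and 35.0 CPM in normal CC, 36.9 and 37.2 CPM in steatotic Veh, and 19.4 and 21.2 CPM in steatotic CC. The last group lay below the other 6 libraries, which spanned 35.0 to 43.5 CPM. CC lowered *Id1* 1.83-fold in steatotic macrophages (log2 fold change -0.87 ± 0.0760, SE, adjusted p = 0.000158), and the value of -0.23 ± 0.0752 in normal macrophages did not pass (adjusted p = 0.101). The difference between the responses was -0.64 ± 0.107 (adjusted p = 0.0216). It did not pass without replicate 2 of normal Veh, either library of normal CC or of steatotic Veh, or replicate 1 of steatotic CC (adjusted p = 0.0596 to 0.0750), and its size stayed between -0.72 and -0.58 in all alternatives.

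*Id2*, the relative of *Id1* and *Id3* that supports lymphoid and dendritic lineages, moved opposite to them. It rose with CC from a mean of 324.8 to 507.3 CPM in normal (log2 fold change 0.64 ± 0.0724, SE, adjusted p = 0.00149) and from 311.9 to 508.5 CPM in steatotic macrophages (0.71 ± 0.0725, adjusted p = 0.000420). *Id4*, the remaining relative, was at most 0.300 CPM in all libraries and was not tested.

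The BMP route to the *Id* genes was read from 19 tested receptors, ligands, SMADs and E proteins. Between the livers at vehicle 4 were higher and 4 lower, with 2 higher without replicate 1 of normal Veh or of steatotic Veh and 2 lower without replicate 2 of normal Veh. With CC none rose and 2 fell in normal macrophages (*Acvrl1* and *Smad6*), and 1 rose (*Acvrl1*) and 2 fell (*Smad1* and *Tcf4*) in steatotic macrophages. These counts stand beside 30.7% of all tested genes called between the livers at vehicle. With CC the shares were 11.8% in normal and 22.9% in steatotic macrophages. In normal macrophages none rose and 1 fell without replicate 1 of normal Veh, 1 rose and none fell without replicate 2 of normal Veh, none rose or fell without either normal CC library, and 1 rose and 3 fell without either steatotic Veh library. In steatotic macrophages 2 rose and 1 fell without either normal Veh library or replicate 2 of steatotic CC, 1 rose and 1 fell without either normal CC library, and none rose and 3 fell without replicate 1 of steatotic Veh. *Bmpr1a*, a type I BMP receptor, was lower with the label steatotic at 12.5 against 43.9 CPM (log2 fold change -1.82 ± 0.112, SE, adjusted p = 2.03e-05), whereas *Acvrl1* and *Eng*, the receptor pair for BMP9 and BMP10, were higher by 0.63 ± 0.0811 and 0.96 ± 0.0823 (adjusted p = 0.000867 and 0.000104). *Smad6*, an inhibitory SMAD and itself a BMP target, was lower by -0.55 ± 0.0798 (adjusted p = 0.00163). *Smad9*, a signal-carrying SMAD at low level, was at 1.63 and 1.18 CPM in normal Veh and at 0 and 0.164 CPM in steatotic Veh (adjusted p = 0.0302), a call lost without any 1 normal library (adjusted p = 0.0626 to 0.109). With CC in normal macrophages *Smad6* fell by 0.36 (adjusted p = 0.0264), a call lost without any 1 of the 4 normal libraries (adjusted p = 0.0639 to 0.137). With CC, *Acvrl1* went from 60.4 to 46.6 CPM in normal (-0.38 ± 0.0813, adjusted p = 0.0240) and from 93.3 to 123 CPM in steatotic macrophages (0.40 ± 0.0807, adjusted p = 0.0102). Its difference of 0.77 ± 0.115 (adjusted p = 0.0130) was opposite in sign to that of *Id1*. It was lost without replicate 1 of normal CC (adjusted p = 0.0549), the fall in normal macrophages without replicate 2 of normal Veh or either normal CC library (0.0901 to 0.120), and the rise in steatotic macrophages without replicate 1 of steatotic Veh or steatotic CC (0.0671 and 0.0605). *Smad1*, a signal-carrying SMAD, fell with CC in steatotic macrophages by 0.63 ± 0.0861 (adjusted p = 0.00153).

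Endothelial cells also express *Id1*, *Id3*, *Acvrl1* and *Eng*. Of 11 tested endothelial markers, *Pecam1* and *Kdr* were higher and *Cldn5* and *Stab2* lower with the label steatotic at vehicle, and *Clec4g*, a marker of sinusoidal endothelium, was at most 0.305 CPM. The share of all tested genes called at vehicle was 30.7%. The *Stab2* call was lost without replicate 2 of normal Veh or replicate 1 of steatotic Veh (adjusted p = 0.0663 and 0.0685), which left 1 marker lower. With CC in steatotic macrophages *Pecam1* fell from 95.9 to 38.8 CPM while *Oit3*, *Stab2* and *Kdr* rose, so the fall of the endothelial sum there, from 193.8 to 200.1 CPM to 164.5 to 165.3 CPM, was that of *Pecam1*, and the 3 others moved opposite to *Id1* and *Id3*. Of these rises, that of *Stab2* was lost without replicate 1 of steatotic Veh or replicate 2 of steatotic CC (adjusted p = 0.0729 and 0.0619) and that of *Kdr* without replicate 1 of steatotic CC (adjusted p = 0.0501). The part of these cells in the *Id* results was not tested.

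**Figure D3:**
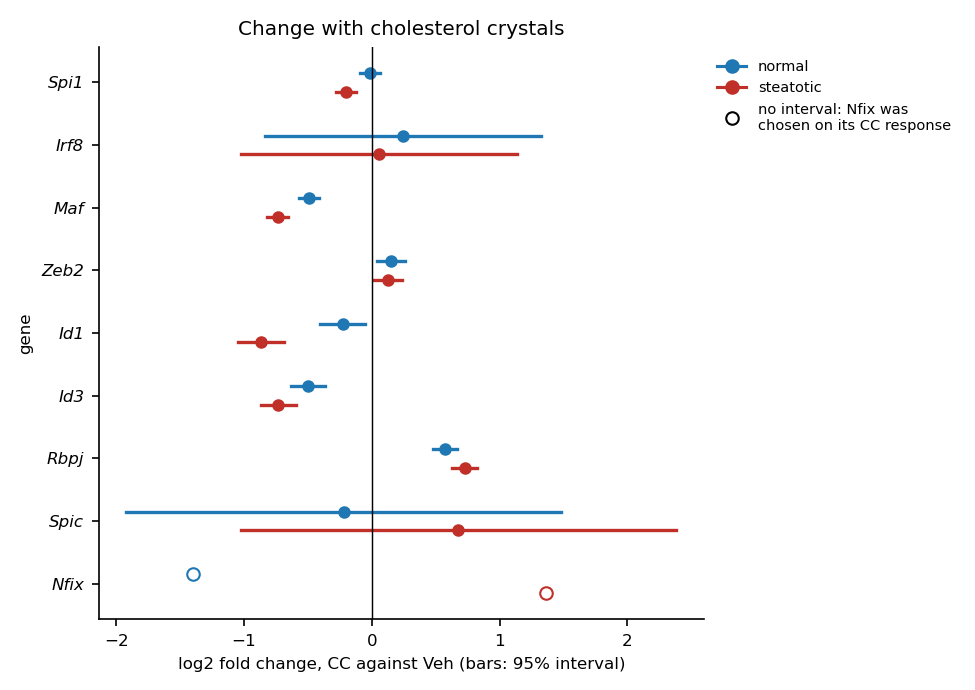
Response of each of the 9 genes to CC, as log2 fold change of CC against Veh on the horizontal axis, in normal and steatotic macrophages. Bars are 95% intervals from the edgeR fit and open points for *Nfix* have no interval because its responses chose it. *Maf*, *Id3* and *Id1* lie left of 0, *Rbpj* lies right of 0, and *Nfix* is at -1.40 and 1.36.

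*Rbpj* (ENSMUSG00000039191.12, chromosome 5, 53466152 to 53657362) encodes the DNA-binding factor through which Notch receptors act. It was at 129.4 and 130.6 CPM in normal Veh, 198.3 and 188.4 CPM in normal CC, 152.1 and 149.3 CPM in steatotic Veh, and 253.1 and 245.4 CPM in steatotic CC. No groups overlapped, and it alone of the 8 genes with a test was called higher with CC. The rise was 1.49-fold in normal (log2 fold change 0.57 ± 0.0417, SE, adjusted p = 0.000172) and 1.65-fold in steatotic macrophages (0.73 ± 0.0417, adjusted p = 2.08e-05), and the difference of 0.15 between them did not pass (adjusted p = 0.289). *Rbpj* was higher with the label steatotic by 0.21 ± 0.0415 at vehicle (adjusted p = 0.00654) and 0.37 ± 0.0415 with CC (adjusted p = 0.000519).

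A processed pseudogene, *Rbpj-ps3*, is 99.7% identical to an *Rbpj* transcript over its 1441 bases and was counted as a gene of its own. It received 437 to 857 counts, 4.53% to 5.63% of those of *Rbpj*. Its log2 fold changes with CC of 0.57 and 0.62 resembled those of *Rbpj*, and how the authors' counting shared reads between the pair is uncertain.

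Of 21 tested genes of the Notch route, 9 were higher and 4 lower with the label steatotic at vehicle, and 2 lower without replicate 1 of normal Veh. Of all tested genes 30.7% were called in this contrast, 16.4% higher and 14.3% lower. The receptors *Notch1* and *Notch2* were higher by 0.49 ± 0.0738 and 0.40 ± 0.0682 (SE, adjusted p = 0.00186 and 0.00363), and the effector *Hey1* was higher by 1.40 ± 0.173 (adjusted p = 0.000686), at 10.5 against 3.96 CPM. The effector *Hes1* was lower by -1.81 ± 0.244 (adjusted p = 0.00107), at 0.706 against 2.48 CPM, and the ligand *Jag1* by -1.10 ± 0.0789 (adjusted p = 4.10e-05).

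With CC, 11.8% of all tested genes were called in normal and 22.9% in steatotic macrophages. In the Notch route 1 gene rose and 3 fell in normal macrophages, and 2 rose and 6 fell in steatotic macrophages. Without replicate 2 of steatotic Veh or replicate 1 of steatotic CC the latter were 1 and 4, and without replicate 1 of steatotic Veh 1 and 5. *Jag1* rose from 31.0 to 80.8 CPM in normal (log2 fold change 1.38 ± 0.0783, SE, adjusted p = 6.96e-05) and from 14.4 to 70.2 CPM in steatotic macrophages (2.28 ± 0.0811, adjusted p = 2.92e-06), with a difference of 0.90 ± 0.110 (adjusted p = 0.00640). *Lfng*, which modifies Notch receptors with sugar, fell from 101.6 to 54.4 CPM and from 130.1 to 51.5 CPM (-0.90 and -1.34, adjusted p = 5.74e-05 and 3.16e-06). Its difference of -0.44 (adjusted p = 0.0168) was lost without any 1 of 5 libraries (adjusted p = 0.0516 to 0.0716), namely replicate 2 of normal Veh or of steatotic Veh, either normal CC library, or replicate 1 of steatotic CC. *Adam10*, the protease that cuts Notch receptors, fell by 0.42 (adjusted p = 0.00149) and 0.40 (adjusted p = 0.000862). *Hey1* fell in steatotic macrophages from 10.5 to 4.25 CPM (-1.30 ± 0.172, adjusted p = 0.00131). Thus the DNA-binding factor and *Jag1* rose while *Lfng* and *Adam10* fell in both kinds of macrophage.

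*Spic* (ENSMUSG00000004359.16, chromosome 10, 88674772 to 88685015) could not be placed between groups, because its libraries differed within them. It was at 190.9 and 405.7 CPM in normal Veh, 254 and 257.8 CPM in normal CC, 406.3 and 179.2 CPM in steatotic Veh, and 304.4 and 631.8 CPM in steatotic CC. The 2 libraries differed by 2.13-fold, 1.02-fold, 2.27-fold and 2.08-fold, and the higher library was replicate 2 in normal Veh and steatotic CC but replicate 1 in steatotic Veh. Of the 3965 tested genes with a mean over 50 CPM, 41 (1.03%) differed by more than 1.9-fold between the libraries of at least 2 groups. The log2 fold change with CC in steatotic macrophages was 0.68 with an interval of -1.03 to 2.38 (adjusted p = 0.545), that in normal macrophages -0.22 (adjusted p = 0.883), and those between the livers -0.03 at vehicle (adjusted p = 0.982) and 0.87 with CC (adjusted p = 0.398). A change of 2-fold in either direction lies inside each of these intervals except the last, which runs from -0.84 to 2.58.

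**Figure D4:**
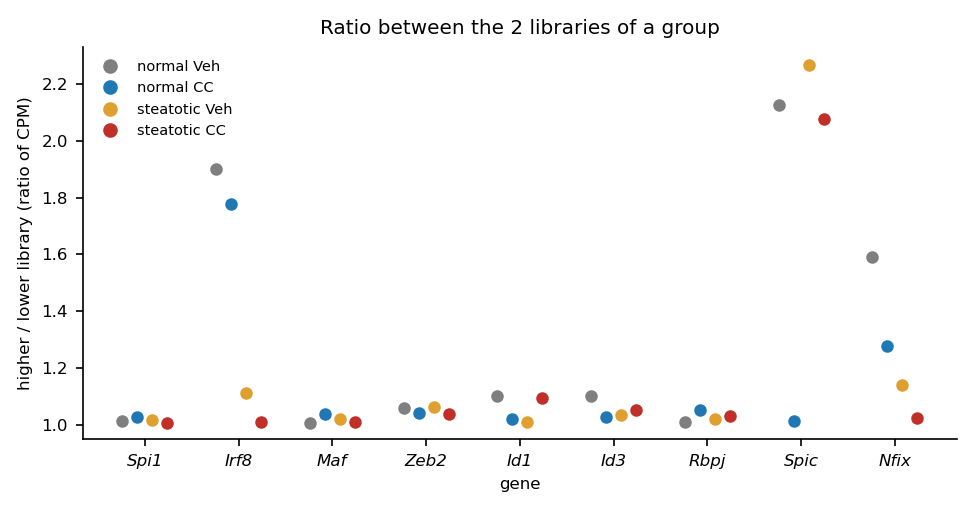
Fold between the higher and the lower of the 2 libraries of each group, on the vertical axis starting near 1, for each of the 9 genes. Points are groups. *Spic* reaches 2.27-fold and *Irf8* 1.9-fold, *Nfix* 1.59-fold, and the other 6 genes stay at or below 1.10-fold.

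The heme and iron genes that accompany SPIC in iron-recycling macrophages differed between the livers, and their libraries lay within 1.13-fold of each other in every group except for *Cd163*, at 1.39-fold. Of 7 such genes, 6 were lower and 1 higher with the label steatotic at vehicle, beside 14.3% and 16.4% of all tested genes. *Treml4* was lower by -1.86 ± 0.0638 on the log2 scale (SE, adjusted p = 1.39e-06), the iron exporter *Slc40a1* by -0.94 ± 0.0548 (adjusted p = 1.62e-05) and heme oxygenase *Hmox1* by -0.66 ± 0.0366 (adjusted p = 1.22e-05), while the adhesion molecule *Vcam1* was higher by 0.23 ± 0.0336 (adjusted p = 0.00165). CC raised 4 of the 7 and lowered 1 in normal macrophages, and raised 4 and lowered 2 in steatotic macrophages. The shares of all tested genes called were 11.8% and 22.9%. Without either steatotic CC library 2 were lower in normal macrophages. With CC, *Hmox1* rose from 3697 to 5440 CPM in normal and from 2342 to 3024 CPM in steatotic macrophages (0.56 and 0.37, adjusted p = 0.000115 and 0.000299). *Slc40a1* fell with CC in steatotic macrophages by 0.55 ± 0.0546 (adjusted p = 0.000297). In these libraries heme genes passed the test in comparisons where *Spic* did not.

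*Nfix* (ENSMUSG00000001911.16, chromosome 8, 84699876 to 84800344) had the lowest level per kilobase of the 9 genes. Its level was 14.4 and 23.0 CPM in normal Veh, 6.24 and 7.97 CPM in normal CC, 6.64 and 7.56 CPM in steatotic Veh, and 18.4 and 18.0 CPM in steatotic CC. It was thus low with CC in normal macrophages and low with Veh in steatotic macrophages, a separation largely set by the choice of the gene. The log2 fold change with CC was -1.40 in normal and 1.36 in steatotic macrophages, and these values chose the gene and carry no test. Averaged over Veh and CC, which is independent of the choice, the livers differed by -0.02 ± 0.160 (SE, interval -0.40 to 0.36, adjusted p = 0.942). *Lyl1*, an antisense neighbour, shares 4 exon bases with *Nfix*, and had 949 to 1468 counts per library, and *G430095P16Rik* shares 137 and had at most 13 counts.

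Its relative *Nfia* did not share this pattern. *Nfia* fell with CC in both kinds of macrophage, from 11.1 to 7.04 CPM in normal (log2 fold change -0.66 ± 0.113, SE, adjusted p = 0.00908) and from 11.8 to 6.02 CPM in steatotic macrophages (-0.97 ± 0.113, adjusted p = 0.000667). The fall in normal macrophages was lost without replicate 1 of normal Veh (adjusted p = 0.0594) or replicate 2 of normal CC (adjusted p = 0.0582).

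Genes with the most similar pattern were sought for the 3 genes whose group means spanned more than 1 on the log2 CPM scale, *Maf*, *Id1* and *Nfix*, by the root mean square difference of centred log2 CPM over the 8 libraries among 9020 genes. For *Maf* these were *Themis2*, *Gm2a* and *Ap1s2*, at 0.0551, 0.0583 and 0.0674. For *Id1* they were *Hpgds*, *Ccnd1* and *Cers5*, at 0.0668, 0.0777 and 0.100. For *Nfix*, *Memo1* and *Pcmtd2* were among the 3 nearest, at 0.470 and 0.492, farther than the neighbours of *Maf* and *Id1*. These are descriptions of the 8 libraries with no test.

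Other transcription regulators of the myeloid lineage place the 9 genes among their peers. Of 32 tested, 11 were higher and 8 lower with the label steatotic at vehicle, and CC raised 8 and lowered 6 in normal and raised 9 and lowered 10 in steatotic macrophages. The shares of all tested genes called were 30.7%, 11.8% and 22.9% in the same order. In normal macrophages CC raised 5 and lowered 4 without replicate 1 of normal Veh, and raised 5 and lowered 2 without replicate 2 of normal CC. *Runx3*, a factor of T and natural killer cells as well, had the largest log2 difference of the 32 between the livers at vehicle, at 3.89 against 0.529 CPM (2.88 ± 0.228 on the log2 scale, SE, adjusted p = 6.96e-05). In steatotic macrophages the largest rises with CC were those of *Bhlhe41* and *Bhlhe40*, which encode repressors that allow macrophage proliferation. *Bhlhe41* rose by 1.32 ± 0.157 (SE, adjusted p = 0.00189) and 2.84 ± 0.169 (adjusted p = 2.84e-05) on the log2 scale, and *Bhlhe40* by 0.77 ± 0.0715 (adjusted p = 0.000545) and 2.28 ± 0.0747 (adjusted p = 2.51e-06). Both were lower with the label steatotic at vehicle, by -1.92 and -1.62 (adjusted p = 0.000119 and 4.48e-06). The nuclear receptor *Nr1h3* (LXRα), which marks Kupffer cell identity, moved in the directions of *Maf*: it was higher with the label steatotic by 0.42 ± 0.0448 (adjusted p = 0.000316) and fell with CC by 0.48 (adjusted p = 0.000553) and 0.36 (adjusted p = 0.000971).

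The difference between the CC responses was called for 4 of these 32 regulators, beside 3.22% of all tested genes. It was 1.503 ± 0.101 (SE, adjusted p = 0.00110) for *Bhlhe40* and 1.52 ± 0.224 (adjusted p = 0.0138) for *Bhlhe41*, which was lost without replicate 2 of normal CC or replicate 1 of steatotic CC (adjusted p = 0.0568 and 0.0532). *Ets2*, an ETS factor downstream of RAS signalling, had a difference of 0.39 (adjusted p = 0.0234), and *Bach1*, the heme-sensing repressor, one of -0.38 (adjusted p = 0.0298). *Ets2* was lost without any 1 library except replicate 1 of steatotic CC (adjusted p = 0.0605 to 0.0835), and *Bach1* without any except replicate 2 of normal Veh and replicate 1 of steatotic Veh (adjusted p = 0.0649 to 0.105). Of all tested genes 30.7% were called between the livers at vehicle, 11.8% with CC in normal and 22.9% with CC in steatotic macrophages. Among the 8 Kupffer cell markers, 4 were higher and 3 lower with the label steatotic at vehicle, and CC lowered 3 in normal macrophages and lowered 6 and raised 1 in steatotic macrophages. The latter were 4 and 0 without either steatotic Veh library and 3 and 1 without replicate 1 of steatotic CC. *Vsig4*, a complement receptor, fell furthest, from 310.9 to 64.8 CPM in normal (log2 fold change -2.26 ± 0.0699, adjusted p = 1.28e-05) and from 591.5 to 87.5 CPM in steatotic macrophages (-2.76 ± 0.0711, adjusted p = 1.11e-06). *Clec4f*, the Kupffer cell lectin, fell by 0.78 (adjusted p = 0.000783) and 0.98 (adjusted p = 0.000104).

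The plot of both CC responses sets the 9 genes against these regulators and the relatives of the 9.

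**Figure D5:**
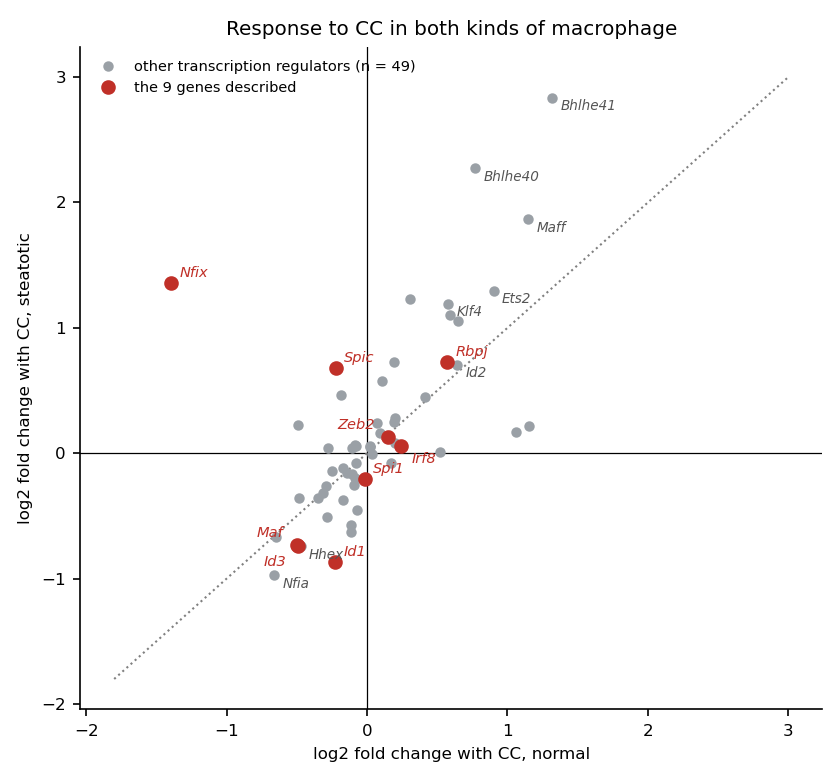
Log2 fold change with CC in normal macrophages (horizontal axis) against that in steatotic macrophages (vertical axis) for the 9 genes and 49 other tested transcription regulators, with a dotted line of equal response. *Maf* and *Id3* lie together below 0 on both axes, *Rbpj* lies beside *Id2*, and *Nfix* lies at the upper left, where its choice puts it, in the same quadrant as *Spic*, whose responses did not pass the test.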

How the data were processed

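Poly(A) RNA of hepatic macrophages was sequenced as 150 bp paired-end reads in 8 libraries, 2 per group. The authors used fastp for trimming, HISAT2 for alignment to mm10 and StringTie for quantification, in versions not given in the sources used here. They deposited estimated counts (expected counts) per gene as whole numbers, not normalized, with 1 column per library. How coverage was turned into counts is not stated, and counts divided by 4 were one alternative. Total counts were 58668655 to 74529462, where 3 counts equal 0.0403 to 0.0511 CPM, a floor for counting error only.

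Groups and replicate numbers came from the labels. Genes reaching 0.5 CPM in any library (15202 of 55401) were tested with edgeR 4.0.16 in R 4.3.3 (TMM, robust quasi-likelihood, 4 group means), with Benjamini-Hochberg adjustment across the tested genes and a threshold of 0.05. SEs are the log2 fold change divided by the square root of F. Intervals are 95%. For *Nfix* the average difference between the livers alone was tested. Lists are given as counts and medians. The 9 genes and all lists were chosen with earlier results of these data known. Named genes were the 9, *Mc4r*, genes of the fixed lists that were called, genes overlapping a member, pseudogenes and the 3 nearest in pattern. The rule named called genes by the size of their change. This order was not kept, since several smaller changes were named after their values were seen and some larger ones were not. Positions and exon lengths are from GENCODE M21 (GRCm38), promoters from RefSeq, and the pseudogene was aligned with blastn 2.17.0. Alternatives were other normalizations, DESeq2 1.42.0, other filters, a block for the replicate number, fits to only the 4 libraries compared, and each library left out, where a lone library is assumed to vary like the other groups. Results for some genes of these lists are not reported here, although list counts and medians include them.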

Additional observations from a re-analysis of the deposited data

Results flagged for a closer look

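The CC responses of normal and steatotic macrophages differed by edgeR's test of the difference itself for 2 of the 8 genes with that test, beside 3.22% of all tested genes. Differences are given as log2 fold change in steatotic minus that in normal macrophages. For *Id1* the difference was -0.64 (adjusted p = 0.0216), with both steatotic CC libraries below the other 6. It kept its sign in all alternatives (-0.72 to -0.58), but the call was lost in some. For *Maf* it was -0.25 (adjusted p = 0.0409), with a fall in both kinds of macrophage. The *Maf* difference kept its sign in all alternatives (-0.28 to -0.22). Its call was lost in most of them, including the replicate block (adjusted p = 0.0637). Among the listed regulators and pathway genes named above, the difference was 0.77 for *Acvrl1*, whose responses ran in opposite directions, 0.90 for *Jag1*, -0.44 for *Lfng*, 1.503 for *Bhlhe40*, 1.52 for *Bhlhe41*, 0.39 for *Ets2* and -0.38 for *Bach1*. As given above, the calls for *Acvrl1*, *Lfng*, *Bhlhe41*, *Ets2* and *Bach1* were each lost when certain single libraries were left out. With 2 libraries a group, no library could be tested as standing apart from its group. The difference of 2.76 for *Nfix* is not among these, since the gene was chosen for it.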

How the results depend on the processing

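Over 767 alternative values of tested contrasts of the 9 genes, 729 kept their direction and side of the threshold. Of the 8 genes with a test of the CC difference, 2 were called, against 1 with library size only, 1 with the replicate block and 0 to 1 when 1 library was left out. The *Maf* difference passed in 5 of 15 alternatives (adjusted p = 0.0548 with library size only) and the *Id1* difference in 9 of 15. The *Bach1* difference was lost with the replicate block (adjusted p = 0.0524). *Id3* between the livers at vehicle passed with library size only (adjusted p = 0.0303). Genes called for the CC difference were 490, against 737 with DESeq2 and 298 to 427 with 1 library left out (298 without replicate 2 of steatotic Veh, 307 and 314 without either normal CC library). Genes called with CC in normal macrophages were 1795, against 1020 to 1761 with 1 library left out (1083 without replicate 1 of normal Veh, 1020 and 1095 without either normal CC library).

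Values that passed in no alternative changed sign in some. These were *Spic* between the livers at vehicle (0.0701 with the replicate block, -0.74 to 0.61 with 1 library left out) and with CC in normal macrophages (-0.66 to 0.43), the *Nfix* average (0.0018 with the block, -0.17 to 0.16 with 1 library left out), and, with 1 library left out, *Irf8* with CC (-0.23 to 0.79 in normal, -0.0186 to 0.13 in steatotic) and its difference (-0.73 to 0.29), *Spi1* with CC in normal macrophages (-0.0338 to 0.0044) and the *Zeb2* difference (-0.067 to 0.026, and 0.0013 with library size only). The cause was not tested. Over all tested genes, deviations of the libraries from their group means correlated between groups with r = -0.0041 to 0.0603. These values cannot decide whether equal replicate numbers share animals, cultures or preparation days, because genes with few counts weigh as much as the others. The block therefore rests on the number in the labels alone. Depth limits *Nfix* little, at 6.24 CPM or more, but the 2 libraries a group limit *Spic* and *Irf8*.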
